A study of Mus musculus with 4 samples.

Results

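Described here are 10 genes of the checkpoint and costimulatory system, chosen by name from the 35869 genes listed for each sample. They are the ligand genes Cd274 (PD-L1), Pdcd1lg2 (PD-L2), Lgals9 (galectin-9), Cd80 and Cd86, the genes Vsir (VISTA) and Havcr2 (TIM-3), whose products act on both myeloid cells and T cells, and the lymphocyte receptor genes Pdcd1 (PD-1), Lag3 and Tigit. All 10 genes were found in the 4 samples, and all 10 passed the filter of at least 1 TPM in at least 2 samples. TPM is a read count divided by the length of the gene and scaled to the same total in each sample, so levels of different genes can be set side by side.

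The samples were CD45+ cells, which are immune cells, taken with microbeads from the stromal vascular fraction of epididymal white adipose tissue (eWAT) of male WT C57BL/6 mice. From 8 weeks of age the mice had 12 weeks of normal diet (ND, 10% of calories from fat) or of high-fat diet (HFD, 60% of calories from fat), and each diet gave 2 RNA-seq samples. The comparison asks which genes differ in the immune cells of fat after HFD. The number of mice behind each library is not stated, so the p-values measure the spread between these samples, which may be technical.

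A T cell that meets its antigen also reads a set of surface ligands on the cell that shows it. CD80 and CD86, the B7 proteins, activate the T cell through CD28 and restrain it through CTLA-4, while PD-L1 and PD-L2 restrain it through PD-1. Galectin-9 binds TIM-3, LAG-3 binds MHC class II, TIGIT binds the poliovirus receptor CD155, and VISTA is a B7-like protein that acts as a ligand and as a receptor. In adipose tissue, macrophages and dendritic cells carry most of the ligands, and T cells and NK cells carry the receptors, while TIM-3 and VISTA are also found on myeloid cells.

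In mm10, with gene models from GENCODE vM21, both PD-1 ligand genes lie side by side on the plus strand. Cd274 spans chr19:29367455-29388095 in 7 exon blocks and Pdcd1lg2 spans chr19:29410919-29471161 in 6 exon blocks, with 22824 bases between them. Both B7 genes lie on another chromosome, Cd86 at chr16:36603869-36666081 on the minus strand with 10 exon blocks and Cd80 at chr16:38455561-38496335 on the plus strand with 7. Tigit is on the same chromosome, at chr16:43648867-43664146 on the minus strand. Lgals9 lies at chr11:78962974-78984946 on the minus strand, Havcr2 at chr11:46454935-46481255 on the plus strand, Vsir at chr10:60346851-60372684 on the plus strand, Pdcd1 at chr1:94038305-94052553 on the minus strand and Lag3 at chr6:124904361-124911705 on the minus strand. Cd274 was the only one of the 10 whose exons overlap those of another gene, since 511 of its exon bases (14.1%) are shared with the antisense gene AC119228.1. The libraries were stranded, but whether the counting used the strand is not stated.

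The 250 bases before the start of 4 of the genes are shown because PD-1 and its ligands share a motif there and Havcr2, which was higher in both HFD samples, has another. They are RefSeq sequences of GRCm38.p6, which is the assembly of mm10, printed 5′ to 3′ on the strand of the gene, with matches in capitals. The windows and distances count from the starts of RefSeq, which are not always those of GENCODE given above, so that the Lgals9 window reaches into the GENCODE gene and the Cd80 window lies inside it. The windows are chr19:29367188-29367437 for Cd274, chr19:29410669-29410918 for Pdcd1lg2, chr1:94052554-94052803 for Pdcd1 and chr11:46454681-46454930 for Havcr2. In Cd274 the capitals mark the interferon regulatory factor (IRF) motif AANNGAAA, in Pdcd1lg2 an NF-kB motif and then the IRF motif, in Pdcd1 the IRF motif and in Havcr2 the AP-1 motif TGANTCA.
Cd274: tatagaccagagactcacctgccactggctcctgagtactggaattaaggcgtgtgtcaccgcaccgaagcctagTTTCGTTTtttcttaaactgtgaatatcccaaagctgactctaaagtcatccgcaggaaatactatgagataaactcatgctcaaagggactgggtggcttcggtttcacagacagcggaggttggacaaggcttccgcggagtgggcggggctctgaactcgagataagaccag
Pdcd1lg2: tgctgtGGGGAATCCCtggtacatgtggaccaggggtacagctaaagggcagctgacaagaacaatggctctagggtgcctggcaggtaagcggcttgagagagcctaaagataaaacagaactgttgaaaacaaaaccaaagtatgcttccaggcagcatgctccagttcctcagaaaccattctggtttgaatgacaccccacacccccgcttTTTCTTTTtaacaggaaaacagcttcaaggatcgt
Pdcd1: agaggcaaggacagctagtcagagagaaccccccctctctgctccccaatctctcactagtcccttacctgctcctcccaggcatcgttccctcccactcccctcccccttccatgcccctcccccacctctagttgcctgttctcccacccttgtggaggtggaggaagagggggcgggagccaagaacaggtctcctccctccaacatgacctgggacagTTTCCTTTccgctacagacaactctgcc
Havcr2: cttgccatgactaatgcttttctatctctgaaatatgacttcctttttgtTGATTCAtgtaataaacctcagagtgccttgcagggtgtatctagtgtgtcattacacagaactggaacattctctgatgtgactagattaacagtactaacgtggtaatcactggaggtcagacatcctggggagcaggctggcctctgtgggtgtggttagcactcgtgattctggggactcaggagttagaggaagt
Of the 10 genes, 8 had such a window, those of Lag3 and Cd86 not being in the sequences used here. Both strands were searched, and none of the matches overlapped another motif. The IRF motif was in 4 of the 8 windows, starting 175 bases before the start of Cd274, 35 before Pdcd1lg2, 28 before Pdcd1, and 151 and 55 before Lgals9. It occurred in 21.3% of 32841 windows of the same length over the genome. The AP-1 motif was in Havcr2 and Cd80 (6.75% of all windows) and the NF-kB motif in Pdcd1lg2 (7.25% of all windows). The gamma-activated sequence motif TTCNNNGAA was in 0 of the 8 windows and in 7.02% of all windows. A match is a run of letters and not a measured binding site.

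Vsir and Lgals9 were the most abundant of the 10 genes in both diets, and Pdcd1lg2 was the least abundant. In ND the order by mean TPM (± SD, n = 2) ran from Vsir (131 ± 2.83) and Lgals9 (118 ± 0.566) through Cd274 (47.5 ± 2.19), Cd86 (46.8 ± 1.84), Cd80 (27.0 ± 0.707), Pdcd1 (23.3 ± 2.26) and Havcr2 (19.7 ± 1.06) to Tigit (13.7 ± 0.212), Lag3 (5.35 ± 0.0707) and Pdcd1lg2 (2.45 ± 0.354). Cd274 and Cd86 were neighbors whose samples overlapped. In HFD the order was Vsir (149 ± 2.47), Lgals9 (79.4 ± 0.495), Havcr2 (42.8 ± 12.1), Cd274 (37.0 ± 1.98), Cd86 (23.2 ± 2.19), Cd80 (14.1 ± 3.54), Pdcd1 (6.80 ± 3.82), Tigit (4.70 ± 1.84), Lag3 (2.90 ± 0.424) and Pdcd1lg2 (0.950 ± 0.354). Havcr2 thus stood in the seventh place in ND and in the third place in HFD, where its samples overlapped those of Cd274, and the samples of Pdcd1 and Tigit overlapped as well. The plot of TPM by sample shows the levels on a log axis.

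**Figure D1:**
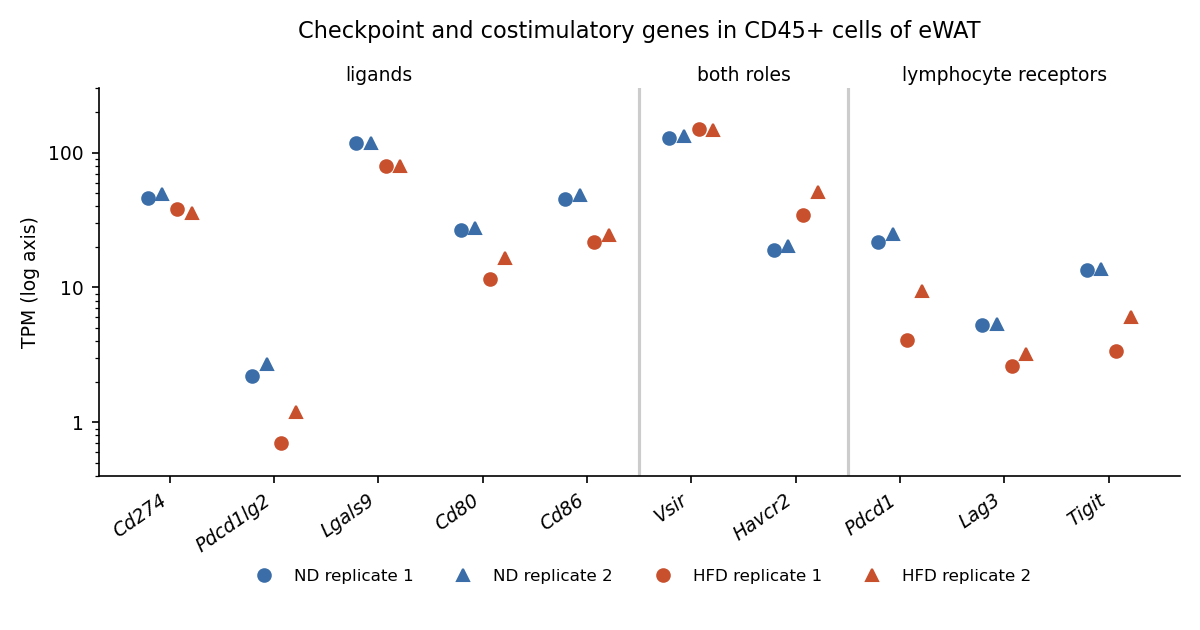
TPM of the 10 genes on a log axis, with 1 point for each ND sample (blue) and each HFD sample (orange), circles for replicate 1 and triangles for replicate 2. The HFD points lie below both ND points for 8 genes and above them for Vsir and Havcr2.

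Of the 10 genes, Cd86, Lag3 and Tigit fell in HFD, and 0 rose. A gene was called when its p-value from limma, adjusted by Benjamini-Hochberg over all genes, was under 0.05 and it changed by at least 1.5-fold on the log2(TPM + 1) scale, on which the added 1 shrinks the fold change of low genes. By this rule 18.4% of the 16849 genes tested were called, 10.3% as lower and 8.08% as higher in HFD. Without the fold limit, 5 of the 10 genes passed the adjusted p, namely Cd274, Cd86, Lag3, Lgals9 and Tigit, each lower in HFD, beside 27.3% of all genes in either direction. The other 5 had adjusted p-values between 0.05 and 0.07, so the number called rests on small differences in p. Without either ND sample, limma called 0 of the 16849 genes and so 0 of these 10 (3862 and 4024 genes had an unadjusted p under 0.05), and without either HFD sample it called 4 and 5 of the 10 as lower and Havcr2 as higher. Both HFD samples lay below both ND samples for 8 of the 10 genes, as they did for 32.8% of all genes, and above them for Havcr2 and Vsir, as for 34.1% of all genes, which makes 66.9% in either direction. The median log2 fold change was -0.77 over the 10 genes and 0.056 over all genes tested. For a single gene, an exact two-sided permutation test over 4 samples has a smallest p of 0.33 and cannot pass the threshold.

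Among the ligands, Cd86, which gives T cells their costimulation through CD28, fell in HFD. Its TPM was 45.5 and 48.1 in ND against 21.6 and 24.7 in HFD. The samples of each diet lay close together, and the diets did not overlap. The mean was 2.02-fold lower, with a log2 fold change of -0.99 (SE 0.091, 95% interval -1.26 to -0.71, adjusted p = 0.0119 from limma). Cd86 was called in 8 of 8 alternative fits with all samples, with log2 fold changes from -1.09 to -0.88. The call was lost with a limit of 2-fold in place of 1.5-fold, and without either ND sample (highest adjusted p = 0.172 from limma).

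Cd80, the other B7 gene, had TPM values of 26.5 and 27.5 in ND against 11.6 and 16.6 in HFD. Both HFD samples were lower, but they differed from each other by 1.43-fold, while the ND samples differed by 1.04-fold. The log2 fold change was -0.91 (SE 0.19, 95% interval -1.49 to -0.33), close to that of Cd86, with an adjusted p of 0.0507 from limma that missed the threshold. Cd80 was called as lower in 2 of 8 alternative fits with all samples, with a pseudocount of 5 (adjusted p = 0.0471 from limma) and with a mean TPM of at least 5 (0.0367). The ratio of Cd86 to Cd80 was 1.72 and 1.75 in ND and 1.86 and 1.49 in HFD, so that the HFD samples lay on either side of the ND samples (exact two-sided permutation p = 1).

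Cd274 encodes PD-L1, which many immune and stromal cells carry. It was at 45.9 and 49.0 TPM with ND and at 38.4 and 35.6 TPM with HFD, or approximately 2367, 2923, 2250 and 1813 reads. The samples of the diets did not overlap, but the difference was small. Its log2 fold change of -0.35 (SE 0.071, 95% interval -0.56 to -0.14, adjusted p = 0.0461 from limma) passed the adjusted p and stayed under the fold limit.

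Pdcd1lg2, the gene of the second ligand of PD-1, found mostly on dendritic cells and macrophages, was scarce in every sample. Its TPM was 2.2 and 2.7 in ND against 0.7 and 1.2 in HFD, which stand for approximately 61.4, 87.2, 22.2 and 33.1 reads. Both HFD samples were lower than both ND samples, and the mean was 2.58-fold lower. The log2 fold change of -0.83 (SE 0.19, 95% interval -1.40 to -0.26) had an adjusted p of 0.0578 from limma. With so few reads, a pseudocount of 0.1 in place of 1 moved it to -1.32 and a pseudocount of 5 to -0.32, not called in either. The ratio of Cd274 to Pdcd1lg2 was 20.9 and 18.1 in ND and 54.9 and 29.7 in HFD, higher in both HFD samples (exact two-sided permutation p = 0.33, the smallest possible here).

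Lgals9 encodes galectin-9, a sugar-binding ligand of TIM-3. Its values were the most even of the 10 genes, with 117.6 and 118.4 TPM after ND against 79.0 and 79.7 TPM after HFD. The diets were far apart relative to this spread, and the log2 fold change was -0.57 (SE 0.039, 95% interval -0.68 to -0.45, adjusted p = 0.0081 from limma). The means differed by 1.49-fold, just under the limit, so Lgals9 was not called, and it was called after median-ratio scaling or quantile normalization.

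**Figure D2:**
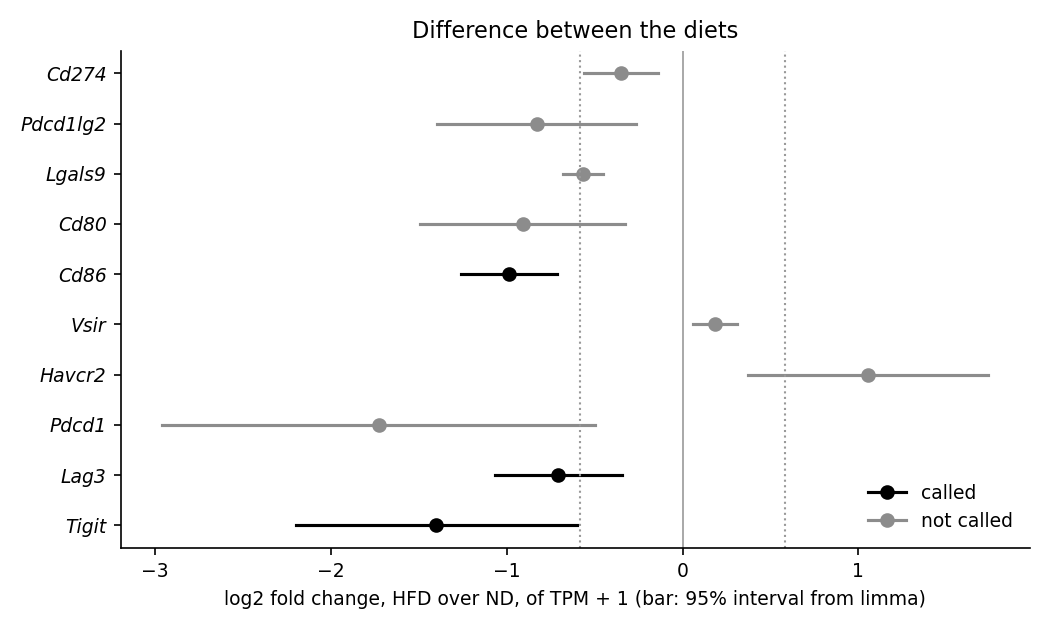
Log2 fold change of TPM + 1, HFD over ND, for the 10 genes, with 95% intervals from limma and dotted lines at 1.5-fold. Cd86, Lag3 and Tigit, in black, were called, and the widest interval, -2.96 to -0.50, is that of Pdcd1.

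Havcr2 had its highest values in HFD. It encodes TIM-3, an inhibitory receptor first known from T cells that is also present on macrophages and dendritic cells. The ND samples had 18.9 and 20.4 TPM, the HFD samples 34.2 and 51.3 TPM. The HFD samples were both above the ND samples but differed from each other by 1.5-fold, and the log2 fold change of 1.06 (SE 0.23, 95% interval 0.37 to 1.74) had an adjusted p of 0.0522 from limma. Over all 8 alternative fits it lay between 0.93 and 1.09, and Havcr2 was called as higher in 1 of them, in which only genes with a mean TPM of at least 5 were tested (adjusted p = 0.0372 from limma).

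Vsir encodes VISTA, which myeloid cells carry at high levels. Its TPM was 128.8 and 132.8 in ND and 150.7 and 147.2 in HFD. The HFD samples were both higher, by a small amount, with a log2 fold change of 0.19 (SE 0.042, 95% interval 0.061 to 0.31, adjusted p = 0.0563 from limma). The interval keeps the difference below the fold limit of 1.5.

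The lymphocyte receptors Tigit and Lag3 fell in HFD. Tigit, an inhibitory receptor of T cells and NK cells, had TPM values of 13.5 and 13.8 in ND against 3.4 and 6.0 in HFD, or approximately 177, 209, 50.5 and 77.5 reads. The ND samples nearly coincided and the HFD samples were spread below them. The mean was 2.90-fold lower, and the log2 fold change was -1.40 (SE 0.27, 95% interval -2.20 to -0.60, adjusted p = 0.0414 from limma).

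Lag3, an inhibitory receptor that resembles CD4, had TPM values of 5.3 and 5.4 in ND against 2.6 and 3.2 in HFD, or approximately 159, 188, 88.7 and 94.9 reads. Both HFD samples were below the ND samples, and the spread within each diet was small. The mean was 1.84-fold lower, with a log2 fold change of -0.71 (SE 0.12, 95% interval -1.07 to -0.35, adjusted p = 0.0335 from limma). With no filter on low genes the calls of Lag3 and Tigit were lost (adjusted p = 0.0608 and 0.0867 from limma), as they were with a replicate block (0.110 and 0.0817) and after quantile normalization (0.10 and 0.0587). The call of Lag3, but not that of Tigit, was also lost with a pseudocount of 5 (log2 fold change -0.39) and with a limit of 2-fold.

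Pdcd1, the gene of PD-1, which activated T cells put on their surface, had the largest fold change of the 10 genes and just missed the call. Its TPM was 21.7 and 24.9 in ND against 4.1 and 9.5 in HFD. Both HFD samples were low, but HFD replicate 2 had 2.32-fold the level of HFD replicate 1. The log2 fold change of -1.73 (SE 0.41, 95% interval -2.96 to -0.50) had an adjusted p of 0.0627 from limma. Pdcd1 was called as lower in 2 of 8 alternative fits with all samples, with a pseudocount of 5 (adjusted p = 0.0490 from limma) and with a mean TPM of at least 5 (adjusted p = 0.0452 from limma). Without HFD replicate 2 it was -2.25 (adjusted p = 0.0289 from limma) and called, and without HFD replicate 1 it was -1.21 (adjusted p = 0.0516 from limma).

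HFD replicate 2 was above HFD replicate 1 for each of the 3 lymphocyte receptors, with ratios of 2.32 for Pdcd1, 1.76 for Tigit and 1.23 for Lag3. It was also above it for Pdcd1lg2 (1.71), Havcr2 (1.5) and Cd80 (1.43) and Cd86 (1.14), whereas Cd274, Lgals9 and Vsir lay between 0.927 and 1.01. The T cell genes Cd3g, Cd3d and Cd3e differed between these libraries in the same direction, by 2.32, 1.67 and 1.65. So did the fibroblast gene Col1a1 (2.16), while the sperm gene Prm1 differed the other way (0.332). Not all lymphocyte markers were higher in HFD replicate 2. In HFD replicates 1 and 2, Cd5 was at 2.1 and 3.0 TPM and Lck at 2.6 and 3.9 TPM. Cd2, at 39.5 and 37.3 TPM, and Cd247, at 2.9 and 2.7 TPM, were slightly lower in HFD replicate 2. The NK cell markers summed to 41.8 and 32.9 TPM. The part of these differences between the HFD libraries in the values of the 10 genes was not tested. The ratio of ND replicate 2 to ND replicate 1 was between 1.01 and 1.23 for the 10 genes.

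The markers of the cells that carry these genes moved as well, and in bulk samples fewer cells of a type and less RNA per cell cannot be told apart. Ptprc, the gene of CD45, was alike in the diets, with TPM values of 54.5 and 59.4 in ND against 55.3 and 53.7 in HFD. All 7 T cell markers that could be tested fell, and their summed TPM was 365.6 and 371.3 in ND and 58.4 and 70.2 in HFD. Both CD8 T cell markers fell (sums 20.4 and 21.3 against 3.7 and 6.5), as did 3 of 4 markers of CD4 and regulatory T cells (85.8 and 87.9 against 14.2 and 16.7). All 6 NK cell markers fell (201 and 206 against 41.8 and 32.9), and so did all 6 B cell markers (135 and 133 against 26.6 and 30.8) and all 5 neutrophil markers. None of the T cell or NK cell markers tested was at 0 in any sample.

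Of 8 macrophage markers, Adgre1 and Cd68 rose and C1qa fell, and the sums were 11158 and 10731 in ND and 9043 and 9286 in HFD. Of 7 markers of conventional dendritic cells, which carry much CD80 and CD86, 3 fell (Cd209a, Batf3 and Zbtb46), and the sums were 647 and 669 against 164 and 153. Cd209a and Batf3 carried most of that sum, and the other 5 markers summed to 31.6 and 32.2 against 16.5 and 22.7, with 4 of them (Flt3, Clec9a, Xcr1 and Itgae) not called. Of 6 markers of migratory dendritic cells, 3 fell (260 and 259 against 150 and 217), and 2 of 4 monocyte markers and 2 of 3 markers of plasmacytoid dendritic cells fell. The part of these markers in the lower Cd80, Cd86 and Pdcd1lg2 values was not tested. Among markers of cells other than leukocytes, 4 of 6 for fibroblasts rose (522 and 561 against 2837 and 5686), 1 of 4 for adipocytes rose and 0 of 4 for endothelial cells were called. The 5 spermatid markers summed to 1793, 1818, 6755 and 2071, highest in HFD replicate 1 and present in all 4 libraries, with Prm1 at 469.8, 475.4, 1600 and 531.5 TPM, above each of the 10 genes, and 0 were called, while 4 of 4 proliferation markers rose.

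Relative to the summed transcripts of Cd3d, Cd3e and Cd3g, chains of the T cell receptor complex, Pdcd1, Lag3 and Tigit were higher in HFD, and the direction depended on the reference for Pdcd1 and Tigit. That sum was 105.9 and 113.1 in ND and 11.3 and 23.3 in HFD, a 6.33-fold lower mean, so it differed more than any of the 3 receptors. Few genes were reduced as much, and on this scale 95.8% of the 16849 genes tested had both HFD samples above both ND samples and 0.552% had both below, so that a higher percentage in HFD is shared with nearly all genes and is not particular to the 3 receptors. Pdcd1 stood at 20.5% and 22% of that sum in ND and at 36.3% and 40.8% in HFD, a 1.81-fold higher mean. Tigit stood at 12.7% and 12.2% in ND and at 30.1% and 25.8% in HFD, a 2.24-fold higher mean. For Pdcd1 the HFD samples lay close together on this scale, although they differed by 2.32-fold in TPM. Lag3 stood at 5.0% and 4.77% in ND and at 23.0% and 13.7% in HFD, a 3.76-fold higher mean. For each of the 3 genes both HFD samples were above both ND samples, with an exact two-sided permutation p of 0.33, the smallest possible. With Cd3e alone as the reference the log2 differences were 0.71 for Pdcd1, 1.01 for Tigit and 1.71 for Lag3, in place of 0.86, 1.16 and 1.86. Each of 7 T cell markers was also taken alone as the reference, 6 of them chosen after the data were seen. With Cd247, another chain of the complex, which was 2.05-fold lower in HFD, the ratio of Pdcd1 was 3.95 and 4.15 in ND and 1.41 and 3.52 in HFD, and that of Tigit was 2.45 and 2.30 against 1.17 and 2.22, both lower in each HFD sample. The ratio of Lag3 to Cd247 overlapped between the diets. With the other 6 markers the log2 differences were above 0 for all 3 receptors, and the diets overlapped for Pdcd1 with Cd2 and with Cd5. LAG-3 and TIGIT are also carried by NK cells, and NK cell transcripts were lower in HFD as well.

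Not every listed lymphocyte gene was higher on this scale. Of 9 further lymphocyte receptors tested, leaving out the myeloid receptor Cd200r1, 6 had both HFD samples above both ND samples and 3 overlapped, and of 6 NK cell markers 1 was higher and 5 overlapped. Ccr8, a marker of regulatory T cells that was singled out after its values were seen, was lower, at 42.3% and 38.1% in ND and 32.7% and 13.3% in HFD. The means were 1.96-fold higher for Cd8a and 1.55-fold for Cd4, which mark T cell lineages, 1.89-fold for Cd28, 1.43-fold for Icos and 2.59-fold for Cd96. Ctla4, the inhibitory receptor for CD80 and CD86, was at 33.0% and 30.8% of the CD3 sum in ND and at 38.1% and 31.3% in HFD, with overlap (exact two-sided permutation p = 0.667). Btla, another inhibitory receptor, was at 4.06% and 3.89% against 16.8% and 13.3%. Foxp3, the factor of regulatory T cells, was at 7.08% and 6.45% against 44.2% and 24%, and its exons overlap those of other genes, among them Ccdc22, at a mean of 66.1 TPM. Il2ra, from the same list of CD4 and regulatory T cell markers, was at 22.3% and 23.9% in ND and 31.0% and 23.2% in HFD, with overlap. The percentages of HFD replicate 1 rest on a CD3 sum of 11.3 TPM, in which Cd3d stands for approximately 52.8 reads.

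**Figure D3:**
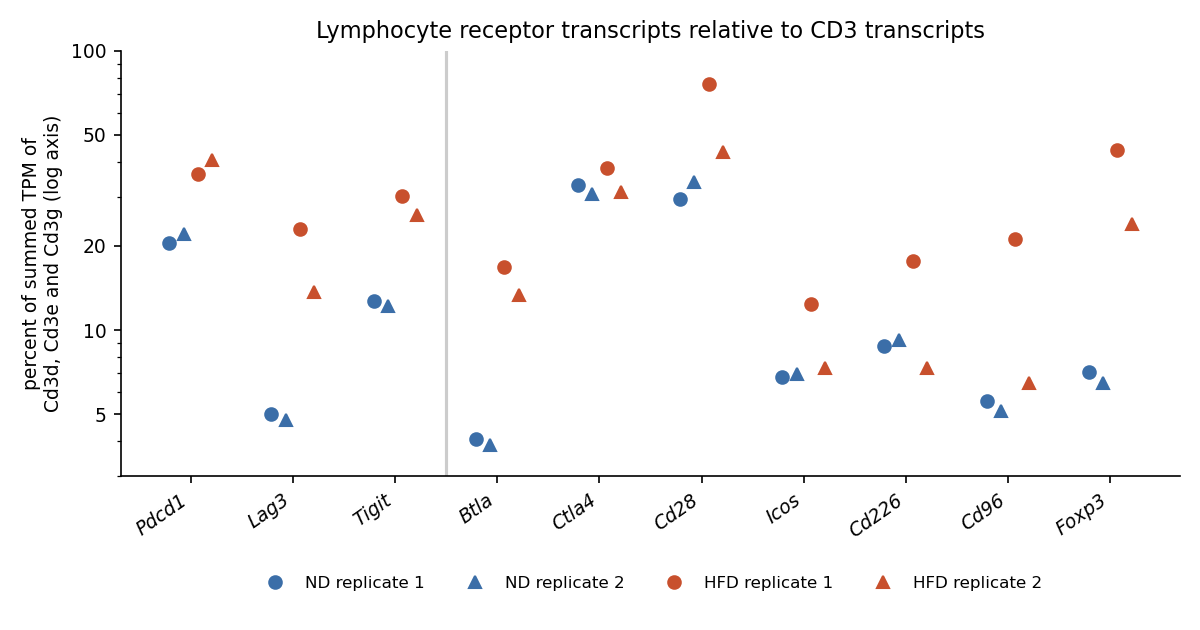
TPM of lymphocyte receptor genes and of Foxp3 as a percentage of the summed TPM of Cd3d, Cd3e and Cd3g in the same sample, on a log axis, with blue for ND, orange for HFD, circles for replicate 1 and triangles for replicate 2. Both HFD points lie above both ND points for Pdcd1, Lag3 and Tigit, and the diets overlap for Ctla4 and Cd226.

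Relative to macrophage transcripts, Cd80, Cd86 and Pdcd1lg2 stayed lower in HFD, while the results for Cd274, Lgals9, Vsir and Havcr2 depended on the reference. Against the summed TPM of Adgre1, Csf1r and Fcgr1, which was 618.6 and 634.1 in ND and 695.6 and 697.3 in HFD, Cd86 stood at 7.36% and 7.59% in ND and 3.11% and 3.54% in HFD. Cd80 stood at 4.28% and 4.34% against 1.67% and 2.38%. Both stayed lower in HFD with Csf1r alone as the reference, with log2 differences of -0.46 for Cd86 and -0.40 for Cd80 in place of -1.17 and -1.11. Pdcd1lg2 had -1.56, and -0.85 with Csf1r alone. The share of all genes that were lower on these macrophage scales was not computed, so these values have no background beside them. Cd274 stood at 7.42% and 7.73% against 5.52% and 5.11%, a log2 difference of -0.51 that turned to 0.20 with Csf1r alone. Lgals9 likewise went from -0.73 to -0.0099. Havcr2 stood at 3.06% and 3.22% in ND and 4.92% and 7.36% in HFD, a log2 difference of 0.94 that became 1.66 with Csf1r alone. Per unit of Cd68, a macrophage marker that itself rose, Havcr2 had ratios of 0.0216 and 0.0241 in ND and 0.0220 and 0.0326 in HFD, with overlap (exact two-sided permutation p = 0.667). Vsir was at 20.8% and 20.9% in ND and 21.7% and 21.1% in HFD, nearly level with the macrophage sum (log2 difference 0.034), and its difference was 0.75 with Csf1r alone.

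Beyond the 10 genes, the further B7 and butyrophilin-like ligands changed in both directions. Of 8 listed, 5 could be tested, of which 3 fell and 1 rose, with a median log2 fold change of -0.88. Icosl, the ligand of the costimulatory receptor ICOS, fell from 98.8 and 103.6 TPM to 25.4 and 32.6 TPM (log2 fold change -1.78, adjusted p = 0.00977 from limma). In ND it was more abundant than Cd80 and Cd86 together. Btnl2, an inhibitory butyrophilin-like gene, fell by 2.20 on the log2 scale, and Tnfrsf14, the partner of BTLA, fell by 0.79. The call of Tnfrsf14 was lost with a pseudocount of 5 (-0.55), with a replicate block (adjusted p = 0.0880 from limma) and without HFD replicate 1 (0.0511), and that of Btnl2 with the block (0.0529). Cd276 (B7-H3) rose from 6.6 and 7.1 TPM to 24.7 and 26 TPM (log2 fold change 1.75, adjusted p = 0.00507 from limma). Fibroblasts also make B7-H3, and the fibroblast markers named above were higher in HFD. Their part in the Cd276 values was not tested. Vtcn1 was at or under 0.7 TPM, and Btn1a1 and Btn2a2 were listed at 0.

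Most of the further lymphocyte receptors fell, as the T cell and NK cell markers did. Of 11 listed, 10 could be tested, of which 8 fell and 1 rose, with a median of -1.53. Ctla4 fell from 34.9 and 34.8 TPM to 4.3 and 7.3 TPM (log2 fold change -2.43, adjusted p = 0.0146 from limma), and Cd28, the receptor that CD80 and CD86 activate, fell from 31.1 and 38.4 TPM to 8.6 and 10.1 TPM (-1.78, adjusted p = 0.0105 from limma). Klrg1, a receptor of NK cells and effector T cells, fell by 3.02, Cd226, the activating rival of TIGIT, fell by 1.93, Icos fell by 1.75 and Cd244 fell by 1.30 on the log2 scale. The call of Cd244 was lost with no filter (adjusted p = 0.0640 from limma), those of Cd244, Cd226 and Ctla4 with a replicate block (0.0631, 0.0504 and 0.0527) and that of Cd28 without HFD replicate 1 (0.0552). The single increase was that of Cd200r1, an inhibitory receptor of myeloid cells, with a log2 fold change of 0.82. Btla (-0.63) was not called.

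Of the ligands of TIGIT, TIM-3, LAG-3 and VISTA, 9 were listed and 7 tested, and 2 rose and 1 fell, with a median of 0.32. Pvr, the gene of the TIGIT ligand CD155, rose from 67.1 and 72.7 TPM to 115.5 and 156.5 TPM (log2 fold change 0.94, adjusted p = 0.0406 from limma), while Tigit fell. Its call was lost with no filter (adjusted p = 0.0863 from limma), with a replicate block (0.0624) and after median-ratio scaling (0.0665). The ratio of Pvr to Tigit was 4.97 and 5.27 in ND and 34.0 and 26.1 in HFD. It could not overlap between the diets, since Pvr was higher and Tigit lower in both HFD samples, so it is no further evidence. Lgals3, whose product galectin-3 is a ligand of LAG-3 and an abundant macrophage protein, rose from 434.7 and 428.9 TPM to 1820 and 1871 TPM (log2 fold change 2.09, adjusted p = 0.00378 from limma). Ceacam1, a partner of TIM-3, fell by 0.77 on the log2 scale, a call that was lost with a replicate block (adjusted p = 0.0707 from limma) and without HFD replicate 1 or 2 (0.0681 and 0.0534). Lgals9, another partner of TIM-3, was lower without a call, and Havcr2 itself was higher without a call.

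Of 11 genes that regulate PD-L1, all tested, 4 fell and 1 rose, with a median of -0.25. Ifng, the cytokine that induces PD-L1, fell from 16.9 and 17.9 TPM to 1.2 and 1.8 TPM (log2 fold change -2.89, adjusted p = 0.00613 from limma). Cd274 itself differed by only -0.35 on the same scale. Cmtm6, which keeps PD-L1 at the cell surface, fell from 134.1 and 139.6 TPM to 75.3 and 76.8 TPM (-0.84, adjusted p = 0.00605 from limma). Jak2, which acts below the interferon gamma receptor, fell by 0.67, and Irf1, which that receptor induces, fell by 0.64 on the log2 scale, while Ifngr2, a chain of the receptor, rose with a log2 fold change of 1.07. With no filter the calls of Jak2 and Irf1 were lost (adjusted p = 0.0503 and 0.0537 from limma), as they were with a replicate block (0.0764 and 0.0690), and that of Jak2 was also lost with a pseudocount of 5. Neither call held without HFD replicate 2 (log2 fold changes -0.74 for Jak2 and -0.54 for Irf1). That of Jak2 did not hold without HFD replicate 1 either (-0.60). The uncalled genes of this list lay between -0.39 and 0.16.

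Of 9 genes that signal below PD-1, CD28 and TIGIT, all tested, 8 were not called. These 8, which include the phosphatases Ptpn6 and Ptpn11, lay between -0.64 and 0.30, and the median of the list was -0.094, close to the 0.056 of all genes.

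Among 11 factors of exhausted and memory T cells, all tested, 7 fell and 1 rose, with a median of -0.71. Tbx21 fell by 2.39, Tcf7 fell by 2.29, Batf fell by 1.40, Eomes fell by 1.23 and Tox, the factor known for exhaustion, fell by 0.93 on the log2 scale. The calls of Eomes and Tox were lost with a pseudocount of 5 (-0.56 and -0.34), that of Tox without HFD replicate 1 (adjusted p = 0.0529 from limma), and those of Tcf7, Eomes, Tox and Prdm1 with a replicate block (adjusted p from 0.0516 to 0.0837). Prdm1 rose with a log2 fold change of 1.36. Several of these genes, such as Batf and Prdm1, are also expressed by myeloid cells. The plot of all lists sets these values beside the middle 90% of all genes.

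**Figure D4:**
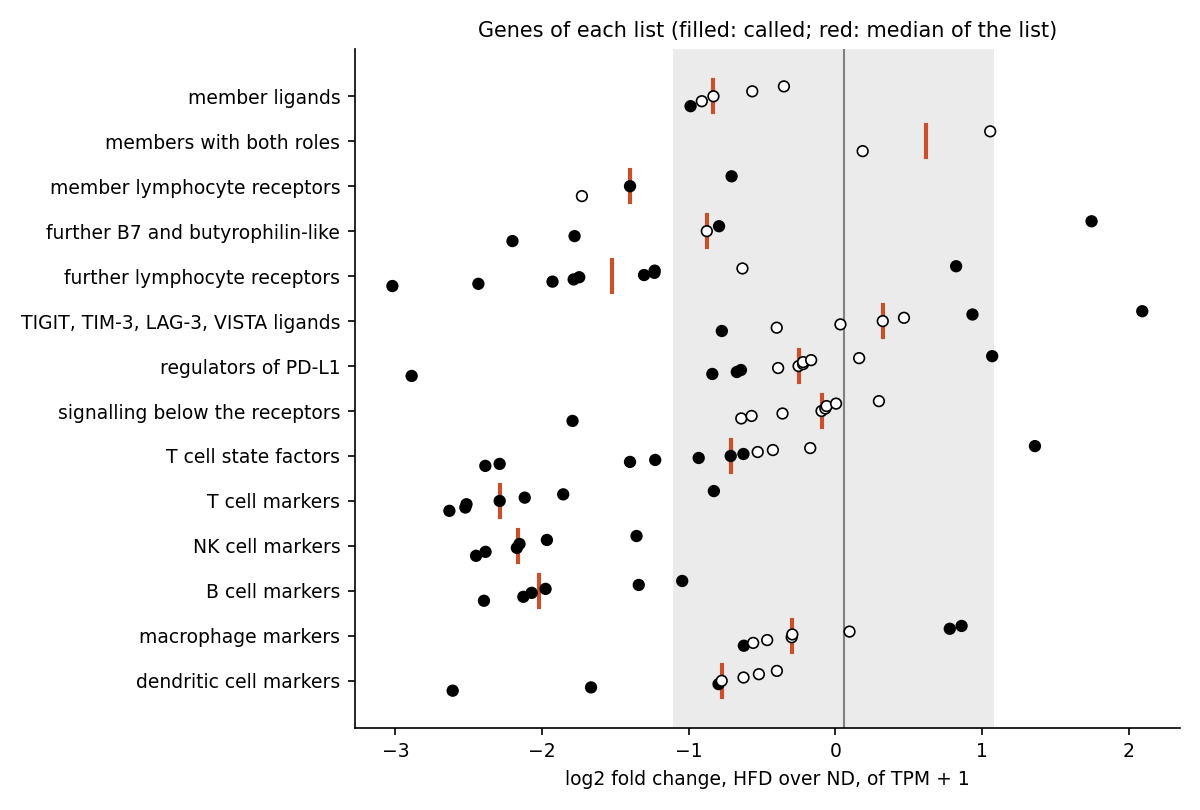
Log2 fold change of TPM + 1, HFD over ND, for each tested gene of each list (filled where called), with the median of each list in red, the median of all genes (0.056) as a line and the 5th to 95th percentile of all genes (-1.10 to 1.07) as a band. The medians of the T cell, NK cell and B cell markers (-2.29, -2.16 and -2.02) lie farther to the left than that of Pdcd1, Lag3 and Tigit (-1.40).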

How the data were processed

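RNA-seq was compared between CD45+ cells of eWAT from mice on ND and HFD, 2 samples each. The authors made stranded mRNA libraries, trimmed reads with Trim Galore 0.4.2 and cutadapt 1.9.1, aligned them to mm10 with STAR 2.6.1e, removed duplicate reads and counted reads per gene with featureCounts 1.6.2 (versions from the submitters' processing notes). The deposited values are TPM per gene, printed to 1 decimal, which the authors computed by dividing counts by gene length and bringing every sample to a common total. TPM are shares of RNA, so a gene can be lower because others are higher. The annotation and the use of strand are not given in the sources used here.

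Of 35869 genes, the 16849 that reached a TPM of 1 in 2 or more samples were compared as log2(TPM + 1) with limma 3.58.1 in R 4.3.3 (eBayes with a variance trend), with Benjamini-Hochberg adjustment over all of them. No count model was used. Single ratios were compared with exact two-sided permutation tests. The steps were tested on simulated data. All 10 genes and the gene lists were chosen with earlier results of these data known. Of each further list, the called genes were named, up to the 6 with the largest change, and other genes only beside a result. The values of some genes of the lists are not reported here.

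Depth was estimated from the values of short microRNA genes, of which 1184 were listed. In these, the TPM of 1 read per kb was 0.0702 and 0.0607 in ND against 0.0618 and 0.0711 in HFD, from 216, 223, 179 and 190 genes. Read numbers use exon lengths of GENCODE vM21 and are approximate, and they cover counting error only. Python 3.11.15 with matplotlib 3.10.9 drew the figures.

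Each of these choices was varied: the pseudocount (0.1 or 5), the filter (none, or a mean TPM of at least 5), the variance trend (none), the scaling (median-ratio or quantile), a replicate block, other fold limits, other reference genes in the ratios (most added after seeing the data) and each sample left out in turn.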

Additional observations from a re-analysis of the deposited data

How the results depend on the processing

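In 78 fits of the 10 genes with all samples and 40 with a sample left out, 0 changed direction. Cd86 was called in 8 of 8 alternatives with all samples, Tigit in 5 of 8, Lag3 in 3 of 7, Pdcd1, Cd80 and Lgals9 in 2 of 8 each and Havcr2 in 1 of 8. Of 3097 genes called (1361 higher, 1736 lower), a pseudocount of 5 left 2015 (1072 lower), a mean TPM of at least 5 left 1109 lower and gave 1 of the 10 genes, Havcr2, as higher (both settings also called Pdcd1 and Cd80 as lower, and the first lost Lag3), and no filter left 1 of the 10, Cd86, as lower. With no fold limit 2230 genes were higher and 5 of the 10 were lower. With a 2-fold limit 1602 genes were called (705 higher, 897 lower) and 1 of the 10, Tigit, was lower.

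With the replicate block 812 genes were called (407 higher, 405 lower), and 1 of the 10 genes, Cd86, was lower. Deviations from the diet means were uncorrelated over genes between same-numbered samples (-0.015). With 2 samples in each diet this value cannot show whether the numbers mark pairs, and the labels do not say.

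Leaving out each sample in turn gave 0 to 4232 genes called, 0 to 2650 higher and 0 to 1691 lower, and 0 to 5 of the 10 genes lower and 0 to 1 higher. The 0 came from leaving out either ND sample, where limma still gave 3862 and 4024 genes an unadjusted p under 0.05; the sample left alone in a diet is then assumed to vary like the others. Without HFD replicate 2, Pdcd1, Cd80 and Havcr2 were called as well, and 62.6% of called genes were higher in place of 43.9% (50.7% at a mean TPM of at least 5). Without HFD replicate 1, Cd80 and Havcr2 were called as well.

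Relative to macrophage transcripts, the Cd274 difference turned from -0.51 to 0.20 with Csf1r alone, because Csf1r was itself lower in HFD. With Cd247 alone as the T cell reference, added after seeing the data, the difference turned from 0.86 to -0.86 for Pdcd1 and from 1.16 to -0.56 for Tigit, because Cd247 was less reduced in HFD than the other T cell markers. The cause of the other changes was not tested. Of 195 fits of 25 further genes with all samples, 23 lost the call and 0 changed direction. These were, beside Pvr, Jak2 and Irf1, Cd244 with no filter, Tnfrsf14, Eomes and Tox with a pseudocount of 5, and Btnl2, Tnfrsf14, Ctla4, Cd226, Cd244, Ceacam1, Tcf7, Prdm1, Eomes and Tox among those with the replicate block. Depth limits Pdcd1lg2 most, with approximately 22.2 reads in HFD replicate 1.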

Other observations

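Some other T cell genes were also set against the CD3 transcripts, a scale on which 95.8% of all genes tested were higher in both HFD samples. Tcf7, a factor of naive and memory T cells, was at 20.9% and 19.8% of the summed TPM of Cd3d, Cd3e and Cd3g in ND and at 25.7% and 20.6% in HFD, with overlap, as for Ctla4. Tox was at 2.17% and 1.77% in ND and at 5.31% and 3.0% in HFD, and Cd8a at 4.82% and 5.22% against 10.6% and 9.01%, both higher in each HFD sample, as for Pdcd1, Lag3 and Tigit. Cd4 was at 8.97% and 8.84% against 16.8% and 10.7%. An exact two-sided permutation test gave p = 0.667 for Tcf7 and 0.33, the smallest possible, for Tox, Cd8a and Cd4.

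The ratio of Cd274 to Pdcd1, ligand to receptor, was 2.12 and 1.97 in ND and 9.37 and 3.75 in HFD, with the larger value in HFD replicate 1, where the CD3 transcripts were lowest.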
